A study of Mus musculus with 6 samples.

Results

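The dystrophin-associated complex was followed through 9 of its genes, Dmd, Utrn, Dag1, Sgca, Sgcb, Sgcd, Sgce, Sntb1, and Dtna, taken by gene name from the 49671 genes of the deposited tables. All 9 had enough counts to be tested. Libraries came from muscle stem cells (MuSCs) of female C57BL/6 mice aged 4 to 6 months, 3 given resolvin D1 (RvD1, a lipid mediator of the resolution of inflammation) by daily IP injection of 100 ng and 3 given the vehicle, 0.1% ethanol in saline. Each tibialis anterior (TA) muscle of every mouse was injured with 50 μL of 1.2% BaCl2, which kills myofibers, and there was no uninjured group among the samples analysed here. At day 3 the 2 TA muscles of a mouse were pooled and MuSCs were sorted as cells with β1-integrin and CXCR4 and without CD45, CD11b, Sca-1, and Ter119 (the sample labels add CD31 to the markers sorted against), so each library stands for 1 mouse.

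Dystrophin is a long rod-shaped protein that ties the actin cytoskeleton to β-dystroglycan in the sarcolemma. Dystroglycan spans the membrane and binds laminin outside the cell through glycans on its α subunit, and the sarcoglycans, syntrophins, and dystrobrevins stabilise or decorate this axis. Loss of dystrophin causes Duchenne muscular dystrophy, loss of α-, β-, γ-, or δ-sarcoglycan causes limb-girdle muscular dystrophies, and in activated MuSCs dystrophin has been linked to cell polarity and asymmetric division.

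Dmd (ENSMUSG00000045103) lies on chromosome X from 82948870 to 85206141 of GRCm38, and can be transcribed from several promoters. Full-length dystrophin starts at the upstream end of the gene, and short products such as Dp71 start far inside it. The windows around both RefSeq starts are shown because the length of the Dmd transcripts, given further on, was the measure of this gene whose groups did not overlap. The first window, chrX:82948620-82948919 on the plus strand, holds the annotated start of the 14910-nt coding transcript Dmd-203 at 82948903. The other, chrX:85048045-85048344 on the plus strand, ends just before the start of the coding transcripts Dmd-201 (4438 nt) and Dmd-202 (1858 nt) at 85048413. Utrn (ENSMUSG00000019820, chromosome 10, 12382188 to 12869365) encodes the dystrophin paralog utrophin. Its window chr10:12861686-12861985 on the minus strand is shown beside those of Dmd. This window holds the annotated start of the coding transcript Utrn-201 (12382 nt) at 12861735. Other coding transcripts start outside it, among them Utrn-205 (11801 nt) at 12869365. Capitals mark every E-box, the CANNTG motif that myogenic regulatory factors can bind.
Dmd upstream start: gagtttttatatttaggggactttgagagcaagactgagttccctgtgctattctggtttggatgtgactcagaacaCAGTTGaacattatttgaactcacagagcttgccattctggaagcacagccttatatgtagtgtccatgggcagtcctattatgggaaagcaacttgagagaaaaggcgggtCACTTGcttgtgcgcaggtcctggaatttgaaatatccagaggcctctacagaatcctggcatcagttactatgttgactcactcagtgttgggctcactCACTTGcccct
Dmd internal start: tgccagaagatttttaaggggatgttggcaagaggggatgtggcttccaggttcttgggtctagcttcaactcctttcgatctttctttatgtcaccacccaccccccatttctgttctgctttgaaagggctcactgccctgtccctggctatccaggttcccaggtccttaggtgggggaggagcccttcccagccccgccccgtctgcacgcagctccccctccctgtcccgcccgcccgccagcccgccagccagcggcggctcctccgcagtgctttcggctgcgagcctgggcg
Utrn: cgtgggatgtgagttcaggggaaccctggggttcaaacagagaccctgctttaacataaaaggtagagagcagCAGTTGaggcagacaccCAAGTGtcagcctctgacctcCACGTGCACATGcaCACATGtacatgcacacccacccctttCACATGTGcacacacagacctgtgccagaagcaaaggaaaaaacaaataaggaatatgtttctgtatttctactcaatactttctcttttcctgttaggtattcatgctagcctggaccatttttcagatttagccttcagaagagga

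The upstream Dmd window held 3 E-boxes, 1 TATAAA, and no GGGCGG (GC-box), with 45.7% G and C. The internal window held 0 E-boxes and 3 GC-boxes, with 62.7% G and C. The Utrn window held 7 E-boxes, some of them overlapping, and 0 GC-boxes. From the RefSeq table (GRCm38.p6), 8 windows for 6 of the 9 genes were read. No member window on chromosome 18, where Dtna lies, was read. In the windows other than those of Dmd and Utrn, E-boxes numbered 1 in each of 2 Dag1 windows, 2 in Sgca, 0 in Sgcb, and 2 in Sgcd. The 2 Dag1 windows overlap and hold the same E-box. Of 32851 windows of this length in the table, 72.3% held CANNTG, 35.7% held GGGCGG, and 13.6% held TATAAA on either strand. The E-box CAGCTG, found in 16.3% of all windows, was in none of the 8. These are matches of letters and not sites of binding.

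Total expected counts, the reads that RSEM assigned to genes, ranged from 16148026 to 28149176 per library, and members had between 12 (Sgcd in vehicle replicate 2) and 44469 (Dag1 in RvD1 replicate 1). The 10 myogenic markers were present in every library, with a summed level of 2895 to 3896 TPM (a level corrected for transcript length and library size), among them Myod1 at 239 to 470 TPM. The leukocyte markers summed to 45.9 to 69.5 TPM with RvD1 and 64.3 to 107 TPM with vehicle over 12 genes, with Ptprc at 0.08 to 1.13 TPM. Itgam, the gene of CD11b, was at 0 in the entry read under that name (ENSMUSG00000108596). Other entries of that name were not looked for, so absence of CD11b transcripts was not shown. The 9 endothelial markers summed to 16.9 to 23.6 TPM with RvD1 and 10.6 to 31.4 TPM with vehicle. Leukocytes, and by the labels endothelial cells, were sorted against. Of the 11 leukocyte markers with counts, 0 had a log2 fold change above 0 and 4 had an unadjusted p under 0.05 in edgeR, 0 after adjustment. RvD1 replicate 1 was the highest of the 6 libraries for 36.5% of the 14494 genes tested, more than any other library. Markers of 3 other lineages summed to their highest level in it. The 8 fibro-adipogenic markers summed to 1374 TPM in RvD1 replicate 1 and to 646 to 888 TPM in the other 5 libraries. Most of the 1374 TPM was Col3a1 (806.27 TPM) and Dcn (450.32 TPM). In all, 5 of the 8 were at their highest there, but Pdgfra, Pi16, and Ly6a were not. The 8 smooth muscle and pericyte markers summed to 630 TPM there, mostly Acta2 (512.24 TPM), and to 310 to 461 TPM elsewhere. The 6 Schwann cell markers summed to 49 TPM there and 18.3 to 31.9 TPM elsewhere. In bulk RNA, fewer cells of a type and less RNA per cell cannot be told apart.

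In length-corrected levels the complex was uneven. Dag1, at 513 ± 112 TPM (SD, n = 6 libraries), stood above the other members in every library, and its mean lay at percentile 97.6 of the genes tested. Sgcb followed at 91.8 ± 6.05 TPM, then Sntb1 at 38.1 ± 5.19 TPM, Sgce at 37.1 ± 13.2 TPM, Sgca at 24.9 ± 5.76 TPM, Utrn at 20.6 ± 4.23 TPM, Dtna at 14.3 ± 3.01 TPM, and Dmd at 11.2 ± 3.99 TPM. Sgcd was the lowest, at 1.2 ± 0.578 TPM and percentile 12.5. The 8 pairs of neighbors in this order were compared across the 6 libraries. Pairs and directions were taken from the means of these same libraries, so the p-values give no independent support for the order. Dag1 exceeded Sgcb by 5.49-fold (4.54 to 7.05), Sgcb exceeded Sntb1 by 2.42-fold (2.20 to 2.72), Sgce exceeded Sgca by 1.46-fold (1.09 to 1.89), Utrn exceeded Dtna by 1.43-fold (1.25 to 2.04), Dtna exceeded Dmd by 1.32-fold (1.05 to 2.13), and Dmd exceeded Sgcd by 9.81-fold (6.09 to 18.67). Each of these 6 held in 6 of 6 libraries (exact sign permutation test on log2 ratios, two-sided, p = 0.0312, the smallest possible, Benjamini-Hochberg adjusted p = 0.0417). Sntb1 and Sgce did not differ beyond their spread (ratio 1.07, higher in 4 of 6 libraries, same exact test, adjusted p = 0.625), nor did Sgca and Utrn (1.21, higher in 5 of 6, adjusted p = 0.143).

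**Figure D1:**
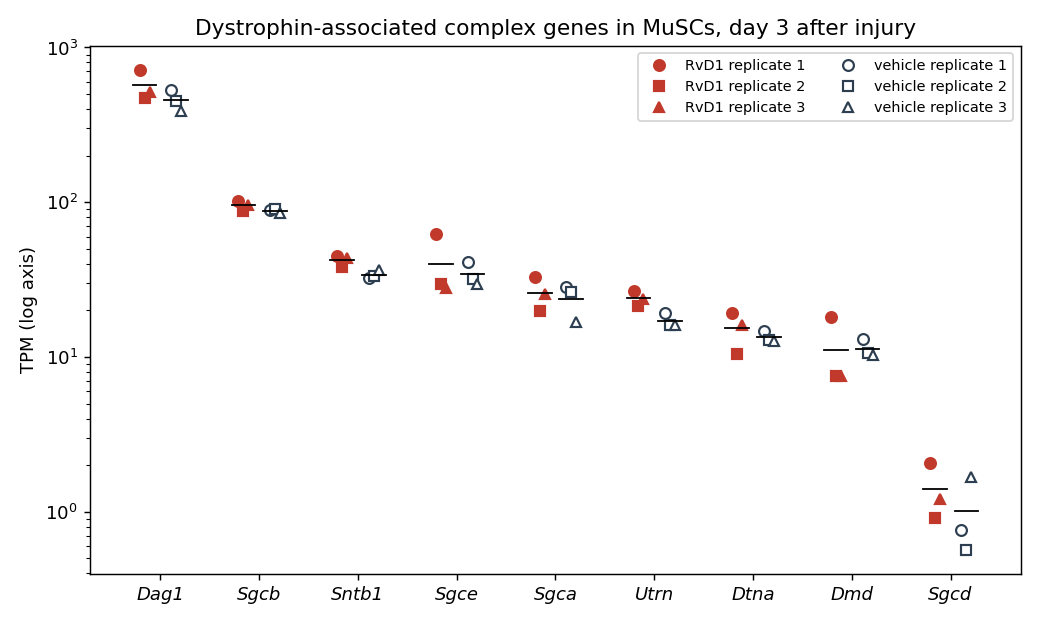
TPM of the 9 members on a log axis, ordered by mean level. Red filled symbols are the 3 RvD1 libraries, open symbols the 3 vehicle libraries, symbol shape gives the replicate number, and bars are group means. Dag1 lies above 387 TPM in every library and Sgcd at or under 2.07 TPM.

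None of the 9 members differed between RvD1 and vehicle after adjustment over all 14494 genes (edgeR quasi-likelihood test, 0 members and 0% of all genes with a Benjamini-Hochberg adjusted p under 0.05). At an unadjusted p under 0.05 there were 2 members, Utrn and Sntb1, both higher with RvD1. Among all genes 3.47% had such a p in either direction and 1.83% were higher with RvD1. The log2 fold change, RvD1 over vehicle, was above 0 for 9 of 9 members against 53.5% of all genes, with a median of 0.17 against 0.01. Without RvD1 replicate 1 it was above 0 for 4 members and the median was 0.00. Of the markers tested, 8 of 8 smooth muscle and pericyte, 6 of 6 Schwann cell, and 6 of 7 fibro-adipogenic markers were above 0 as well. So were 8 of 10 myogenic and 5 of 10 differentiation markers, but only 2 of 9 endothelial and 0 of 11 leukocyte markers. An unadjusted p under 0.05 in either direction was found in edgeR for 2 smooth muscle and pericyte, 2 Schwann cell, 1 fibro-adipogenic, and 4 leukocyte markers. It was found for 0 of the myogenic, differentiation, and endothelial markers, and an adjusted one for 0 markers of any list.

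Among the proteins that link actin to the membrane, Utrn was at 26.74, 21.45, and 23.58 TPM in RvD1 replicates 1, 2, and 3, and at 19.34, 16.07, and 16.13 TPM in vehicle replicates 1, 2, and 3. Every RvD1 library was above every vehicle library. The log2 fold change was 0.29 (SE 0.12, 95% CI 0.01 to 0.56), or 1.22-fold, with an unadjusted p of 0.0425 and an adjusted p of 0.971 from edgeR. It was 0.20 to 0.36 with 1 library left out, and the unadjusted p stayed under 0.05 in 2 of these 6 fits, those without RvD1 replicate 3 or vehicle replicate 1.

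Dmd behaved differently. It was at 18.21 TPM in RvD1 replicate 1 but at 7.58 and 7.57 TPM in RvD1 replicates 2 and 3, with 12.99, 10.64, and 10.29 TPM in the vehicle libraries. The vehicle libraries thus lay between the highest and the other RvD1 libraries, and the coefficient of variation was 55.2% with RvD1 against 13% with vehicle. The log2 fold change of the counts was 0.26 (SE 0.38, 95% CI −0.60 to 1.12, edgeR adjusted p = 0.971). Without RvD1 replicate 1 it was −0.44, with an unadjusted p under 0.05 but an adjusted p of 0.967. On the log2(TPM + 1) scale it was −0.13 with all libraries, so the direction of Dmd depended on the unit and on 1 library. The ratio of Utrn to Dmd in TPM was 1.49, 1.51, and 1.57 in the vehicle libraries and 1.47 in RvD1 replicate 1, but 2.83 and 3.11 in RvD1 replicates 2 and 3.

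Dag1 (ENSMUSG00000039952, chromosome 9, 108204634 to 108263958), whose product is cleaved into α- and β-dystroglycan, was at 716.01, 474.06, and 514.37 TPM with RvD1 and at 530.23, 452.52, and 387.88 TPM with vehicle. The groups overlapped. Its log2 fold change was 0.17 (SE 0.15, 95% CI −0.17 to 0.51, edgeR adjusted p = 0.971), and 0.00 without RvD1 replicate 1.

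The sarcoglycans form a membrane subcomplex beside dystroglycan. α-Sarcoglycan (Sgca, chromosome 11, 94962791 to 94976327) is largely restricted to striated muscle, and its relative ε-sarcoglycan (Sgce, chromosome 6, 4674350 to 4747207) is broadly expressed and maternally imprinted. Sgca was at 32.9, 19.87, and 25.41 TPM with RvD1 and at 28.17, 26.34, and 16.92 TPM with vehicle (log2 fold change 0.03, SE 0.22, 95% CI −0.48 to 0.53, edgeR adjusted p = 0.994). Sgce was at 62.21, 29.73, and 27.78 TPM with RvD1 and at 41.1, 32.15, and 29.57 TPM with vehicle. As for Dmd, RvD1 replicate 1 held the highest Sgce level and the other RvD1 libraries sat at the lower end of the vehicle range or just under it. The log2 fold change of Sgce was 0.16 (SE 0.28, 95% CI −0.47 to 0.79, edgeR adjusted p = 0.971), and −0.29 without RvD1 replicate 1.

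β-Sarcoglycan (Sgcb, chromosome 5, 73632749 to 73647790) varied least among the members, at 101.51, 88.16, and 96.53 TPM with RvD1 and 88.78, 90.34, and 85.35 TPM with vehicle. Its interval was the narrowest of the 9, with a log2 fold change of 0.02 (SE 0.08, 95% CI −0.16 to 0.20, edgeR adjusted p = 0.992), which leaves room for a ratio between 0.89 and 1.15. δ-Sarcoglycan (Sgcd, chromosome 11, 46896253 to 47988969) rested on 49, 26, and 26 expected counts with RvD1 and 13, 12, and 34 with vehicle, or 2.07, 0.91, and 1.21 TPM and 0.76, 0.57, and 1.69 TPM. At this depth its interval reached from 0.62- to 2.98-fold (log2 fold change 0.44, SE 0.50, edgeR adjusted p = 0.971), and the groups overlapped. Without vehicle replicate 3 its log2 fold change was 1.02, and without RvD1 replicate 1 it was 0.06.

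Of the cytoplasmic members, β1-syntrophin (Sntb1, chromosome 15, 55636388 to 55906949), an adaptor that docks signaling proteins on dystrophin, was at 44.72, 38.19, and 43.88 TPM with RvD1 and at 32.62, 33.22, and 36.26 TPM with vehicle. Every RvD1 library was above every vehicle library, as for Utrn. The log2 fold change was 0.23 (SE 0.09, 95% CI 0.02 to 0.44), or 1.17-fold, with an unadjusted p of 0.0366 and an adjusted p of 0.971 from edgeR, and it was 0.18 to 0.28 with 1 library left out. The unadjusted p stayed under 0.05 in 3 of these 6 fits, those without RvD1 replicate 1, RvD1 replicate 2, or vehicle replicate 3. α-Dystrobrevin (Dtna, chromosome 18, 23415135 to 23659715), which binds dystrophin and the syntrophins and shares 90 nt of exon with the antisense gene Gm47898 that reads without strand cannot set apart, was at 19.12, 10.54, and 16.1 TPM with RvD1 and at 14.67, 12.82, and 12.75 TPM with vehicle. RvD1 replicates 1 and 2 marked its highest and lowest level, with vehicle between them (log2 fold change 0.12, SE 0.15, 95% CI −0.23 to 0.47, edgeR adjusted p = 0.971). On log2 CPM (counts scaled to library size with TMM factors), Utrn and Sntb1 were the 2 members whose RvD1 libraries all lay above the vehicle libraries, a pattern held by 4.8% of all genes.

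**Figure D2:**
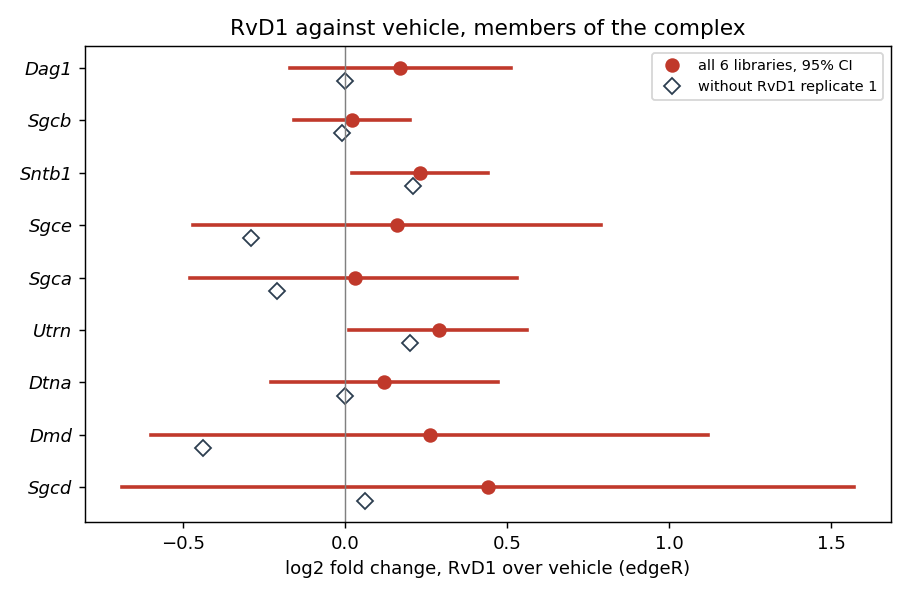
Log2 fold change of RvD1 over vehicle from edgeR for each member, with the 95% confidence interval (red) and the value without RvD1 replicate 1 (open diamonds). The intervals of Utrn and Sntb1 start just above 0 (0.01 and 0.02), and the diamonds of Dmd, Sgce, and Sgca lie furthest under 0.

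The members shared 1 feature across libraries. RvD1 replicate 1 had the highest TPM for 9 of 9 members, beside 36.5% of all genes tested. On TMM-normalized log2 CPM it was the highest for 8 of the 9 (30.6% of all genes). By TPM it was also the highest for 17 of the 40 pathway genes with counts that are described further on. These were 6 of 8 ligand genes, 4 of 6 further subunits, 4 of 18 glycosylation genes, and 3 of 8 cytoplasmic partners. The excess over the mean of the other RvD1 libraries was 2.40-fold for Dmd, 2.16-fold for Sgce, and 1.95-fold for Sgcd, about 1.4- to 1.5-fold for Dag1 (1.45), Sgca (1.45), and Dtna (1.44), and 1.19-fold or less for Utrn (1.19), Sgcb (1.10), and Sntb1 (1.09). The lowest library was not shared, with vehicle replicate 3 lowest for 3 members, vehicle replicate 2 and RvD1 replicate 3 for 2 each, and vehicle replicate 1 and RvD1 replicate 2 for 1 each. In the same library 5 of 8 fibro-adipogenic, 6 of 8 smooth muscle and pericyte, and 5 of 6 Schwann cell markers were at their highest. Of the 11 leukocyte markers with counts, 1 was, as were 2 of 9 endothelial markers. So were 5 of 10 myogenic markers, among them Pax7 at 8.5 TPM and Megf10 at 54.07 TPM. Myod1 was at its lowest there (238.88 TPM), and 0 of 10 differentiation markers were at their highest. The sort removed cells with Sca-1, a marker of fibro-adipogenic cells, and its gene Ly6a was at 25.44 TPM in RvD1 replicate 1 against 39.72 TPM in vehicle replicate 1. Several of these lineages express the complex too, and their part in the members' levels was not tested.

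**Figure D3:**
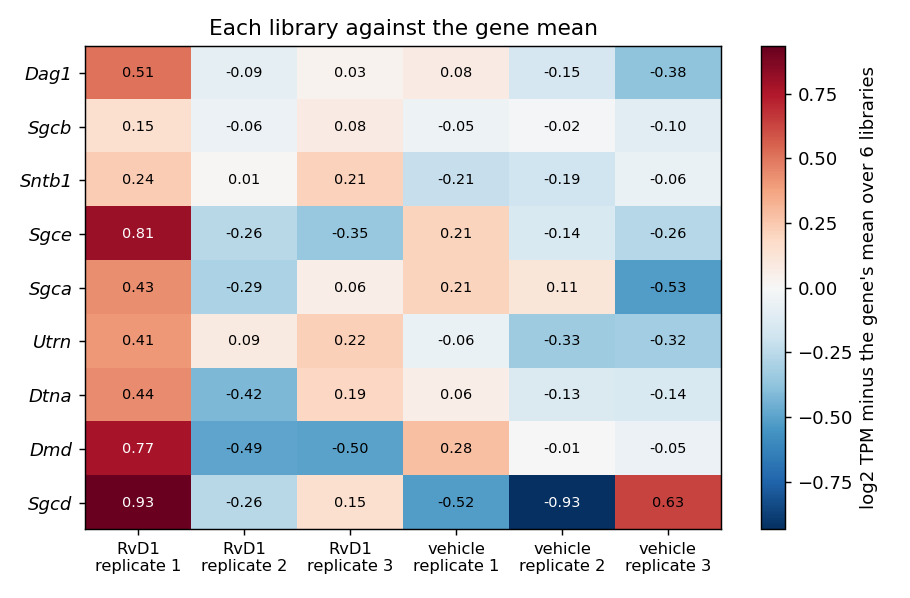
Log2 TPM of each member in each library minus the mean of that member over the 6 libraries (red above, blue under the mean). The column of RvD1 replicate 1 is above the mean for all 9 members, with 0.93 for Sgcd, 0.81 for Sgce, and 0.77 for Dmd.

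Because FPKM is the count divided by the effective length and the library total, the deposited tables together give the mean effective length of the transcripts to which RSEM assigned a gene's reads, weighted by their abundance. For 688 genes with 1 annotated transcript, the effective length was shorter than the annotated length by a median of 70.6 nt, and 95.2% of them lay within 10 nt of that median. For Sgcb and Sntb1 the value was close to the longest coding transcript, at 3675 to 3722 nt and 4628 to 4735 nt, or 99.6% and 96.5% of its effective length on average. It was 1524 to 1607 nt for Sgce, 4785 to 5060 nt for Dag1, 1157 to 1326 nt for Sgca, 1620 to 1983 nt for Sgcd, and 2439 to 2894 nt for Dtna.

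Utrn and Dmd, the members with the longest annotated coding transcripts, were the furthest from their full-length form. Dtna came next, at 41.7% of the effective length of its longest coding transcript. Utrn had a mean effective length of 3726 to 4409 nt, 33% of that of its longest transcript (12382 nt). Dmd had 3126 to 4498 nt, 23.8% of that of the 14910-nt transcript and 5 of the 6 libraries lay between the lengths of the internally started coding transcripts, 1858 and 4438 nt. Upper bounds were set with the transcript lengths of GENCODE M21, taking the assignment of reads by RSEM as exact. Forms of 10000 nt or more could then make up at most 19.4% to 28.9% of the Dmd transcripts in a library. For the Utrn transcripts this was at most 29.6% to 35.6%. Uneven read coverage along long transcripts could shift these bounds and was not tested. These are shares of transcripts, not of reads, and 1 mean length does not resolve which shorter forms were present.

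The mean length of Dmd transcripts was longer in each RvD1 library than in any vehicle library. It was 4498, 3469, and 3765 nt in RvD1 replicates 1, 2, and 3 and 3174, 3126, and 3145 nt in vehicle replicates 1, 2, and 3. The vehicle libraries lay within a far narrower span than the RvD1 libraries (3911 ± 530 nt against 3148 ± 24 nt, SD, n = 3). The difference of 762 nt, or 24.2%, had a p of 0.1 (exact permutation test, two-sided), the smallest that 3 against 3 allows, so this test cannot fall under 0.05. It was 469 nt without RvD1 replicate 1. Dag1 moved the other way, with 4785, 4803, and 4956 nt with RvD1 and 5060, 5039, and 5035 nt with vehicle, a difference of −197 nt or −3.9% (same exact test, p = 0.1). The groups overlapped for the remaining 7 members. Of 8 members with an FPKM of at least 1 in every library and a length that varied by over 1%, 2 had groups that did not overlap, beside 11.1% of the 9054 genes with these properties. A longer mean length gives a lower TPM for the same count, and for Dmd the log2 fold change by counts was 0.26 while the ratio of mean TPM was 0.98.

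**Figure D4:**
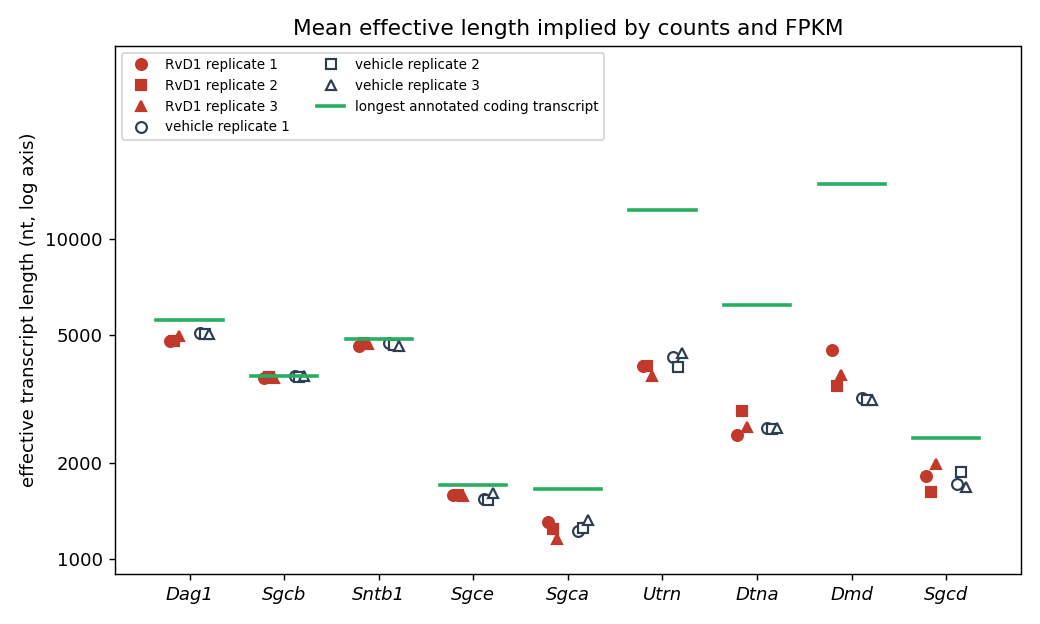
Mean effective transcript length of each member by library, in nt on a log axis, with symbols as for the TPM plot, and the effective length of the longest annotated coding transcript in green. Sgcb and Sntb1 sit at the green line, and Utrn and Dmd far under it, with the RvD1 libraries of Dmd above the vehicle libraries.

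Genes of the same pathway outside the 9 were read from 4 lists with 42 genes in all, of which 36 had enough counts to be tested. None had an adjusted p under 0.05, and 1, Lama4, had an unadjusted p under 0.05, beside 3.47% of all genes. On log2 CPM, Lama4 was the 1 gene with all RvD1 libraries above all vehicle libraries, beside 4.8% of all genes. In 1 glycosylation gene all RvD1 libraries lay below. Among all 14494 genes, groups did not overlap in either direction for 1395. The median log2 fold change over the 36 was 0.08 (−0.02 without RvD1 replicate 1) and 23 were above 0, beside a median of 0.01 and 53.5% above 0 for all genes.

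Of 8 further subunits, 5 were tested, with a median log2 fold change of 0.16 (−0.02 without RvD1 replicate 1). Sspn (sarcospan, which associates with the sarcoglycans) averaged 32.6 ± 12.1 TPM in the RvD1 mice against 25.6 ± 5.34 TPM in the vehicle mice (SD, n = 3), with a log2 fold change of 0.26 that was −0.05 without RvD1 replicate 1. The β-dystrobrevin gene Dtnb averaged 14.8 ± 1.34 and 15 ± 1.99 TPM. Sgcz and Sntg1 had 0 counts in every library, which allows up to 0.107 to 0.186 CPM per library (3 counts, counting error only), so ζ-sarcoglycan and γ1-syntrophin transcripts were not detectable at this depth.

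The 18 genes of the enzymes that build the laminin-binding glycan of α-dystroglycan had a median log2 fold change of 0.04 over 17 tested, with 9 above and 8 under 0, and 0 with an unadjusted p under 0.05. The most abundant were Pomgnt1, a glycosyltransferase of the O-mannose pathway, averaging 74.3 ± 7.76 TPM in the RvD1 mice against 73.4 ± 7.24 TPM in the vehicle mice (SD, n = 3), and Dpm1 and Dpm2, subunits of dolichol-phosphate mannose synthase, at 53.6 ± 3.15 and 55.6 ± 6.92 TPM and at 50.1 ± 6.71 and 48.4 ± 1.37 TPM. These differences were smaller than the SD over all 6 libraries (6.73, 4.94, and 4.42 TPM). By counts Pomgnt1 and Dpm2 had log2 fold changes of −0.10 and −0.03, opposite to their TPM means.

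Among 8 ligand genes, 6 were tested, with a median log2 fold change of 0.30 (−0.04 without RvD1 replicate 1). Lama4, the laminin α4 chain of vessel and nerve basement membranes, was at 11.68, 5.74, and 7.16 TPM with RvD1 and at 5.65, 3.5, and 4.97 TPM with vehicle. Its groups did not overlap (log2 fold change 0.52, SE 0.21, unadjusted p = 0.0366, edgeR adjusted p = 0.971), with RvD1 replicate 2 only just above vehicle replicate 1, and its log2 fold change was 0.26 without RvD1 replicate 1. Lama2, the laminin α2 chain of the muscle basement membrane, was at 30.8 ± 14.7 and 21.5 ± 6.7 TPM (SD, n = 3), Bgn (biglycan) at 96.1 ± 45.9 and 72.6 ± 5.1 TPM, and Lama5 at 34.7 ± 8.6 and 32.6 ± 3.01 TPM. The means of Lama2 and Bgn rested on RvD1 replicate 1, without which their log2 fold changes were −0.11 and −0.05.

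The 8 cytoplasmic partners, all tested, had a median log2 fold change of 0.11 (−0.04 without RvD1 replicate 1). Des (desmin, the muscle intermediate filament) averaged 604 ± 37.8 TPM in the RvD1 mice against 580 ± 56.7 TPM in the vehicle mice (SD, n = 3), Plec (plectin) at 57.3 ± 1.35 and 50.7 ± 5.09 TPM, and Ank3 (ankyrin-G) at 40.3 ± 2.6 and 37.4 ± 2.28 TPM. By counts the direction of Des and Plec was the opposite, with log2 fold changes of −0.10 and −0.09. None of the 8 had an unadjusted p under 0.05 in edgeR.

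**Figure D5:**
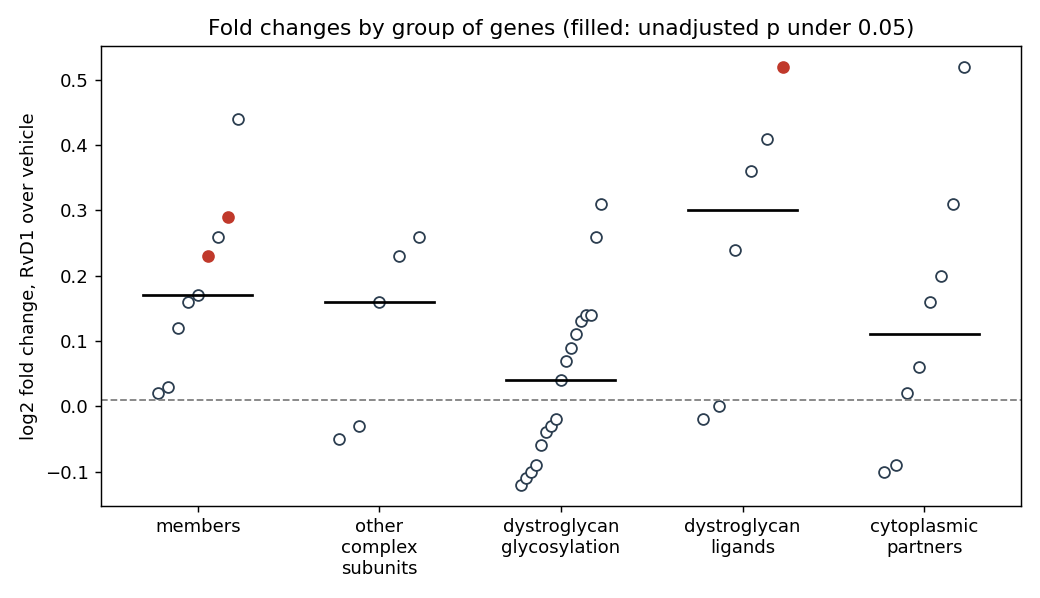
Log2 fold change of RvD1 over vehicle for the tested genes of the 9 members and the 4 pathway lists, 1 point per gene, with list medians as bars and the median of all genes (0.01) as a dashed line. Filled points are Utrn, Sntb1, and Lama4, the genes with an unadjusted p under 0.05.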

How the data were processed

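Both TA muscles of each mouse gave 1 RNA-Seq library of sorted MuSCs. Per the methods and the submitters' processing notes, the authors used STAR 2.5.0a for alignment of single-ended reads (genome build mm10) and RSEM for quantification. The gene annotation was not given in the sources used here. The deposited expected counts are estimated reads per gene without depth scaling. The authors scaled the deposited TPM and FPKM values by library size and effective transcript length. cDNA was made with a SMART-Seq kit, and the libraries carry no molecular identifiers.

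Expected counts were rounded and tested with edgeR 4.0.16 (R 4.3.3) across all genes that passed filterByExpr, with TMM factors, the quasi-likelihood test, and Benjamini-Hochberg adjustment at 0.05. SE was derived from the fold change and the F statistic. Alternatives were DESeq2 1.42.0, DESeq2 size factors, no count filter, limma 3.58.1 with voom, limma-voom after removal of surrogate variables with sva 3.50.0 (the study's procedure, here on genes with at least 1 expected count in a library, a filter chosen here), limma on TPM, a replicate block, and each library left out. On simulated counts the tests were checked against known changes. Effective length was the count of a gene divided by its FPKM and the library total, with FPKM taken per kilobase. Promoter windows came from RefSeq and gene positions from GENCODE M21, both on GRCm38. 1 stray header line was removed.

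P-values measure the spread between mice, 1 library each. The members and lists were chosen with earlier results of these data known. The text names all 9 members, the 3 most abundant genes of each pathway list, and every listed gene with an unadjusted p under 0.05. 1 gene that this rule names is not reported here. Sgcz, Sntg1, Myod1, Pax7, Megf10, Itgam, Ptprc, Ly6a, Col3a1, Dcn, Pdgfra, Pi16, and Acta2 were named after their values were seen. Gyltl1b was found in the files as Large2.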

Additional observations from a re-analysis of the deposited data

How the results depend on the processing

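The direction and the absence of an adjusted call held for Utrn and Sgcd under all 15 alternatives. Dag1 was 0.00 to 0.27 with 1 library left out, 0.00 without RvD1 replicate 1. The count of genes with an adjusted p under 0.05, 0 in the edgeR fit, was 12 without a filter on low counts, 1727 in limma-voom with 2 surrogate variables removed (a number chosen after seeing the data), and 0 to 1 with 1 library left out (1 without RvD1 replicate 3). It was 0 with the 1 surrogate variable estimated by sva, where the smallest adjusted p was 0.109. Both surrogate-variable fits also used a looser count filter and tested 26518 genes against 14494 in the edgeR fit. They were fitted after removal without taking off the degrees of freedom that the surrogate variables used, which makes p-values too small. Their counts and adjusted p-values reflect all of these choices. The count at an unadjusted p under 0.05, 503 in the edgeR fit, was 1143 without the filter, 2973 and 6706 with 1 and 2 surrogate variables removed, 896 with a replicate block, and 282 to 1016 with 1 library left out. Among the members, 1 had an adjusted p under 0.05 with 2 surrogate variables removed (Sntb1, limma adjusted p = 0.0482, 0.0482 to 1 over the alternatives), and 1 had an unadjusted p under 0.05 without the filter (Utrn) against 2 in the edgeR fit and 0 to 2 with 1 library left out, where the 2 without RvD1 replicate 1 were Dmd and Sntb1. The cause of these differences was not tested.

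Log2 fold changes turned direction with 1 and 2 surrogate variables removed for Dmd (−0.11 and −0.10), Sgca (−0.06 and −0.06), Sgce (−0.03 and −0.02), and Dpm1 (0.04 and 0.04), and with 1 for Dtnb (0.00). On log2(TPM + 1) and log2(TPM + 0.1) they turned for Dmd (−0.13 and −0.15), Pomgnt1 (0.02 and 0.02), Dpm2 (0.04 and 0.04), Des (0.06 and 0.06), and Plec (0.18 and 0.18). In limma-voom without surrogate variables they turned for Dtnb (0.02) and Dpm1 (0.02), and for Lama5 they were 0.00 with DESeq2 size factors, without the filter, and in DESeq2. With 1 library left out the ranges were −0.44 to 0.53 for Dmd, −0.21 to 0.17 for Sgca, −0.01 to 0.05 for Sgcb, −0.29 to 0.36 for Sgce, 0.00 to 0.26 for Dtna, −0.05 to 0.42 for Sspn, −0.11 to 0.06 for Dtnb, −0.12 to 0.06 for Dpm1, −0.13 to 0.04 for Dpm2, −0.05 to 0.65 for Bgn, −0.12 to 0.15 for Lama5, −0.11 to 0.59 for Lama2, and −0.14 to 0.01 for Plec. The excess length of Dmd in the RvD1 libraries was 469 to 983 nt with 1 library left out. Same-numbered libraries deviated from their group means with correlations of 0.31, −0.00071, and 0.126 across genes. Libraries with different numbers had correlations of −0.246 to 0.173. These values do not settle whether the numbers mark pairs, and the main fit did not take them as pairs. The replicate block changed no member's call. The order of the members by mean FPKM was that by TPM. Each group had 3 mice, and Sgcd rested on 12 to 49 counts per library.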
